A study of Homo sapiens with 12 samples.

Results

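The genes described here are the nuclear-encoded subunits of oxidative phosphorylation, followed through 12 RNA libraries of HepaRG, a human hepatic cell line with the genotype given as WT. Members were taken by gene symbol alone, with no measured value used: protein-coding genes named NDUF with a letter A, B, C, S or V and a number, NDUFAB1, SDHA to SDHD, genes beginning UQCR, CYC1, COX4 to COX8, and ATP5. This gave 92 of the 58735 genes in the deposited table, of which 40 belong by prefix to complex I, 4 to complex II, 10 to complex III, 17 to complex IV and 21 to complex V. Each of 4 groups had 3 libraries. PA+OA cells received 400 µM palmitate and 200 µM oleate for 4 h. PA+BMS cells had 50 µM BMS-309403 for 24 h, with 400 µM palmitate for 4 h of it. PA cells received 400 µM palmitate labelled with deuterium for 4 h, and control cells were left untreated for 4 h. Deuterium is named here for the palmitate of PA only. Any difference in palmitate label between PA and the PA+OA or PA+BMS groups cannot be told apart from oleate or BMS-309403. Palmitate is a saturated and oleate a monounsaturated fatty acid, BMS-309403 inhibits the fatty acid-binding protein FABP4, and no group here had oleate or BMS-309403 without palmitate. By its title the series concerns lipids in liver fibrosis.

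Oxidative phosphorylation takes place in the inner mitochondrial membrane, where complex I and complex II pass electrons from NADH and succinate through ubiquinone to complex III, cytochrome c and complex IV, which reduces oxygen. Complexes I, III and IV move protons across the membrane, and complex V, the ATP synthase, uses their return to make ATP. Most subunits are encoded in the nucleus and imported, a core set is encoded by mitochondrial DNA, and complex II has nuclear subunits only. In liver cells the chain takes up the NADH and reduced flavins that come from fatty acid oxidation and the citric acid cycle.

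Values are FPKM, fragment counts scaled by gene length and library size, so levels are given per length. The gene length is that of the deposited table, for example 531 bases for NDUFB7 and 10391 bases for NDUFA9. Levels of different genes depend on it, and its part in their order was not tested. Gene coordinates are those of GENCODE 29 on GRCh38. A gene was tested if it reached 1 FPKM in at least 3 libraries, which 80 of the 92 members and 11856 genes in all did. Recovered whole reads numbered 16059128 to 19971190 per library. Changes are differences of mean log2(FPKM + 1), which understates the change of low genes. A gene is said to have risen or fallen where limma gave a Benjamini-Hochberg adjusted p under 0.05 over all 11856 genes. The labels do not call replicates separate cultures, so p-values measure the spread between these libraries, which may be technical. On the first principal component of all tested genes, with 54.4% of the variance, PA+OA replicate 1 lay at 54.6 and PA+BMS replicate 3 at -51.5, each apart from its group, and results are also given without these libraries. Of 12 hepatocyte markers, 10 stayed under 1 FPKM in every library, with no read of ALB or FGB, and CPS1 and HPD, enzymes of the urea cycle and of tyrosine breakdown, were at 50.4 to 147 and 27.8 to 77.6 FPKM. The keratins KRT7, KRT8 and KRT18 of the simple and bile duct-like epithelium list reached 96.5 to 917 FPKM. KRT19, EPCAM and SOX9 of the same list stayed under 1 FPKM in every library. The stromal markers COL1A1, LUM and PDGFRB were at 9.63 to 12.5, 2.10 to 5.40 and 1.46 to 3.76 FPKM, and DCN at 0.180 to 0.572 FPKM.

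The members that changed in PA against control moved in opposite directions, and their promoters are shown so that the sequences can be set beside these changes. The windows run from 250 bases before to 50 bases after the RefSeq gene start on GRCh38.p14, 5′ to 3′ on the gene's strand. Capitals mark every match to 3 motifs of factors known to bind respiratory chain promoters, searched on both strands: GCGCANGCG for NRF1, CCGGAAG for ETS factors such as GABPA, and AAGATGGC for YY1.
NDUFV1 promoter, chr11:67606686-67606985, plus strand: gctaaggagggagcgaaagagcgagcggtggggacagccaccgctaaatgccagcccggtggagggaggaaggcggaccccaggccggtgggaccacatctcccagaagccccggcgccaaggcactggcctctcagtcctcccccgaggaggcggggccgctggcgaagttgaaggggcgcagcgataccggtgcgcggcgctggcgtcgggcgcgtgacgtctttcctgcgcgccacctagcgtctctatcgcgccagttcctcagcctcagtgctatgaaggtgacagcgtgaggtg
COX7A2L promoter, chr2:42361168-42361467, minus strand: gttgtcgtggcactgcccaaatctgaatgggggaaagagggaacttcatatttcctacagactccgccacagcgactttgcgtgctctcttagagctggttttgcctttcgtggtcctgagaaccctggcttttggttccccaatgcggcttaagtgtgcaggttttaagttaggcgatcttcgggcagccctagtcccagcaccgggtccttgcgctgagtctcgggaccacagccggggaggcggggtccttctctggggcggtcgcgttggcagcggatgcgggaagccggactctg
UQCRC2 promoter, chr16:21953111-21953410, plus strand: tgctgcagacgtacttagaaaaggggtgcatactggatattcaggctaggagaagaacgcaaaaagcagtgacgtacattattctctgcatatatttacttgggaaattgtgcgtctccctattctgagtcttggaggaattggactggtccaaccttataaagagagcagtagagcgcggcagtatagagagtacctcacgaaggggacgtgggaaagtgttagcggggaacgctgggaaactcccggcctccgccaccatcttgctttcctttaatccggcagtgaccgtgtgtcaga
SDHD promoter, chr11:112086623-112086922, plus strand: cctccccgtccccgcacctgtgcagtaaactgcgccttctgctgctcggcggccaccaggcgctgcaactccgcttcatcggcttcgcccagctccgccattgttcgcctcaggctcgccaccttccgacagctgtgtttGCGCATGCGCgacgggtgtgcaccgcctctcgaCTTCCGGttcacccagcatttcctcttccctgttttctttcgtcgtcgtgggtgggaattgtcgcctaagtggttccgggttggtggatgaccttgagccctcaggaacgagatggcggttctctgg
NDUFS1 promoter, chr2:206159395-206159694, minus strand: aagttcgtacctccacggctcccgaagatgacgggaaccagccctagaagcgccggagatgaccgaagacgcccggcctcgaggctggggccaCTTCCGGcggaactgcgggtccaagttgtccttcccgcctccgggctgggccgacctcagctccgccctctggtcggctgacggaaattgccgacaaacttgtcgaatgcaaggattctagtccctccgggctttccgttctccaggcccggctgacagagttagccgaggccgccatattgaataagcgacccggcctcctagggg
The SDHD window held NRF1 letters on both strands from positions -110 and -109 relative to the start, which overlap each other, and an ETS match at -77 apart from them, and the NDUFS1 window held an ETS match at -157. The windows of NDUFV1, COX7A2L and UQCRC2 held none of these letters. Base composition ran from 49.3% GC at UQCRC2 to 68.3% GC at NDUFV1. RefSeq windows matched 61 of the 80 tested members by symbol. NRF1 letters were found in 21 of them (34.4%), ETS letters in 18 (29.5%) and YY1 letters in 10 (16.4%). Over 8125 windows of tested protein-coding genes the shares were 16.3%, 21.0% and 6.02% for NRF1, ETS and YY1 letters. A match is a run of letters, not a binding site, and these shares carry no test.

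One subunit of complex V, the membrane c subunit that forms the rotating ring of ATP synthase, is encoded by ATP5MC1, ATP5MC2 and ATP5MC3 on separate chromosomes. The longest stretch at the end of the 3 coding sequences that translates alike is shown, because these genes encode the same ring subunit yet can be counted apart. It is 234 bases from GENCODE 29 on GRCh38, for the same 77 residues, which include the mature protein, and capitals mark the 58 positions at which the genes differ from one another.
ATP5MC1, chromosome 17: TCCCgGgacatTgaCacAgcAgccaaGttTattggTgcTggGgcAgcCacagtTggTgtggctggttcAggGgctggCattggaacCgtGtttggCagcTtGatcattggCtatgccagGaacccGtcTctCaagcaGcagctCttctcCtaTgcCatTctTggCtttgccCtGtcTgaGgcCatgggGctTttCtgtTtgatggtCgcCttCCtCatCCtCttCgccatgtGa
ATP5MC2, chromosome 12: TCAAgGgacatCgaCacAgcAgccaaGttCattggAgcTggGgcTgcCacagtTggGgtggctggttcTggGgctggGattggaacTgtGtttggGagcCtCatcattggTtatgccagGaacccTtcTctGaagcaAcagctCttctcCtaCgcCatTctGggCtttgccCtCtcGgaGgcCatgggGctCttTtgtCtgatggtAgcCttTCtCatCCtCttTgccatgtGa
ATP5MC3, chromosome 2: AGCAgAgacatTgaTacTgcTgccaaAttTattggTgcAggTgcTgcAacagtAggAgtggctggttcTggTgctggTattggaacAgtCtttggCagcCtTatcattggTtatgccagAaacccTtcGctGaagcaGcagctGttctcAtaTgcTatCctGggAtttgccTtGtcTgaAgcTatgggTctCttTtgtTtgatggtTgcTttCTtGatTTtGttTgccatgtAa
Over these bases ATP5MC1 and ATP5MC2 were 88.46% equal, and ATP5MC3 was 79.91% equal to each. By contrast, UQCRH, the complex III hinge protein, and its near-identical copy UQCRHL have the same base at 272 of 276 coding positions (98.55%), so their reads may be mixed.

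Levels per length, on the gene lengths of the deposited table, differed widely among tested members. The highest was ATP5F1B, the catalytic beta subunit of ATP synthase (ENSG00000110955, chr12:56638175-56646068), with a mean of 1141 FPKM over the 12 libraries, and the lowest in complex V was ATP5S, also called factor B, at 1.22 FPKM. In complex I the ends were NDUFS5, a small accessory subunit, at 359 FPKM and NDUFA4L2, a hypoxia-induced paralogue of NDUFA4, at 1.57 FPKM. In complex II the flavoprotein SDHA stood at 75.96 FPKM and the membrane anchor SDHC at 13.04 FPKM. Complex III ran from cytochrome c1, CYC1, at 307 FPKM to UQCRHL at 3.45 FPKM, and complex IV from COX8A, a small subunit, at 239 FPKM to COX7A2L, a supercomplex factor, at 22.9 FPKM. In all, 13 members averaged at least 100 FPKM, 53 were between 10 and 100 FPKM and 14 tested members were below 10 FPKM. Complex is assigned by symbol prefix, so NDUFA4, ATP5S and ATP5IF1 are counted with the complex they are named for. Another annotated gene overlaps 59 of the 92 members, and for 33 of these the partner reached 1 FPKM. The strand setting of the counting is not given in the sources used here, so reads of overlapping partners may be mixed.

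The 12 untested members were mostly isoforms known from other tissues and read-through genes. COX6A2 and COX7A1, the heart and muscle forms, had 0 and 16 reads over the 12 libraries, and COX4I2, the lung form, had 3. The testis forms COX6B2, COX7B2 and COX8C had 53, 0 and 1 reads. Their broadly expressed counterparts COX6A1, COX7A2, COX4I1, COX6B1, COX7B and COX8A were all tested and averaged 49.2, 80.1, 77.9, 137, 40.2 and 239 FPKM. ATP5MGL and NDUFC2-KCTD14 also had 0 reads, and ATP5MF-PTCD1 had 5. For the 4 members with 0 reads, 3 reads in a library would have been worth at most 0.240 FPKM for NDUFC2-KCTD14, 0.245 FPKM for COX7B2, 0.248 FPKM for ATP5MGL and 0.366 FPKM for COX6A2, a floor for counting error only. NDUFV2, an iron-sulfur core subunit, and the accessory subunits NDUFA7 and NDUFA13 belong to complex I in every tissue, yet stayed at 0.147 to 0.438, 0.120 to 0.746 and 0.455 to 1.01 FPKM. Each overlaps another annotated gene, NDUFV2-AS1, RPS28 and YJEFN3 in that order, and the part of that overlap in their low values was not tested.

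**Figure D1:**
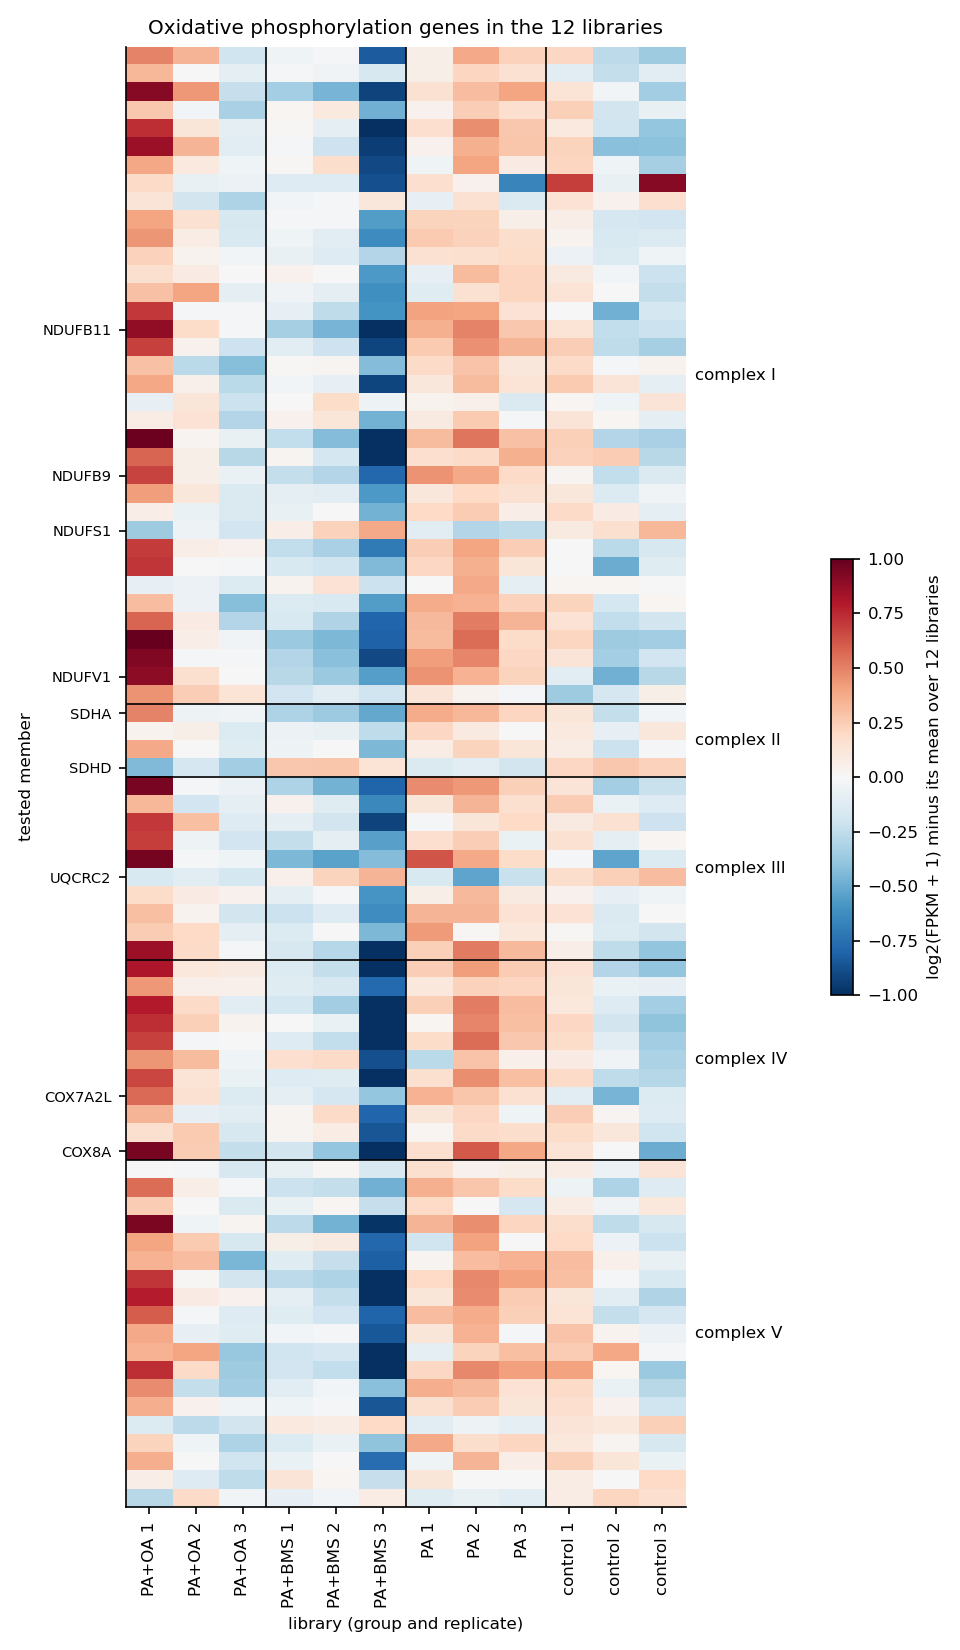
Heat map of the 80 tested members (rows, by complex, a few named) in the 12 libraries (columns, by group), coloured by log2(FPKM + 1) minus the member's mean over the 12 libraries, from blue (lower) to red (higher), with values beyond 1 in either direction shown at the end of the scale. Most rows share a pattern, with PA+OA replicate 1 high and PA+BMS replicate 3 low, while NDUFS1, SDHD and UQCRC2 run the other way.

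Members tended to be high or low together within a library. PA+OA replicate 1 was the highest of its group for 69 of the 80 tested members and PA+OA replicate 3 the lowest for 70. PA+BMS replicate 3 was the lowest of its group for 74 members, and control replicate 1 the highest of the controls for 63. In PA libraries the lowest value lay in replicate 1 for 39 and in replicate 3 for 36 members, and replicate 2 was the highest for 51. The lowest control value lay in replicate 2 for 36 and in replicate 3 for 39 members. The share of a library's summed FPKM held by all members was 1.94% ± 0.192 in PA+OA, 1.70% ± 0.323 in PA+BMS, 2.01% ± 0.0843 in PA and 1.90% ± 0.146 in control libraries (SD, n = 3 each).

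By complex, the median FPKM of tested members stood for complex IV at 95.7 ± 23.6 in PA+OA, 58.4 ± 18.9 in PA+BMS, 96.8 ± 9.23 in PA and 71.8 ± 14.1 in control libraries (SD, n = 3 each). For complex I the medians were 23.4 ± 6.004, 17.8 ± 3.56, 23.3 ± 1.15 and 20.2 ± 2.42 FPKM in PA+OA, PA+BMS, PA and control libraries. For complex III they were 51.1 ± 6.43 in PA+OA, 42.1 ± 8.93 in PA+BMS, 55.5 ± 5.27 in PA and 48.7 ± 4.66 in control libraries. Complex V had 40.9 ± 5.20 in PA+OA, 33.0 ± 10.7 in PA+BMS, 41.7 ± 4.31 in PA and 39.5 ± 3.55 in control libraries. Complex II, with 4 members, had 23.6 ± 2.85 in PA+OA, 25.2 ± 1.69 in PA+BMS, 24.9 ± 0.947 in PA and 26.9 ± 0.792 in control libraries. In complex IV the single libraries gave 70.3, 68.4 and 36.6 FPKM in PA+BMS against 88.8, 107 and 94.8 in PA and 88.0, 64.4 and 62.9 in control. All 3 PA+BMS libraries lay below all 3 PA libraries, and PA+BMS replicates 1 and 2 lay within the range of the controls. In bulk libraries, fewer cells of a type and less RNA per cell cannot be told apart.

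**Figure D2:**
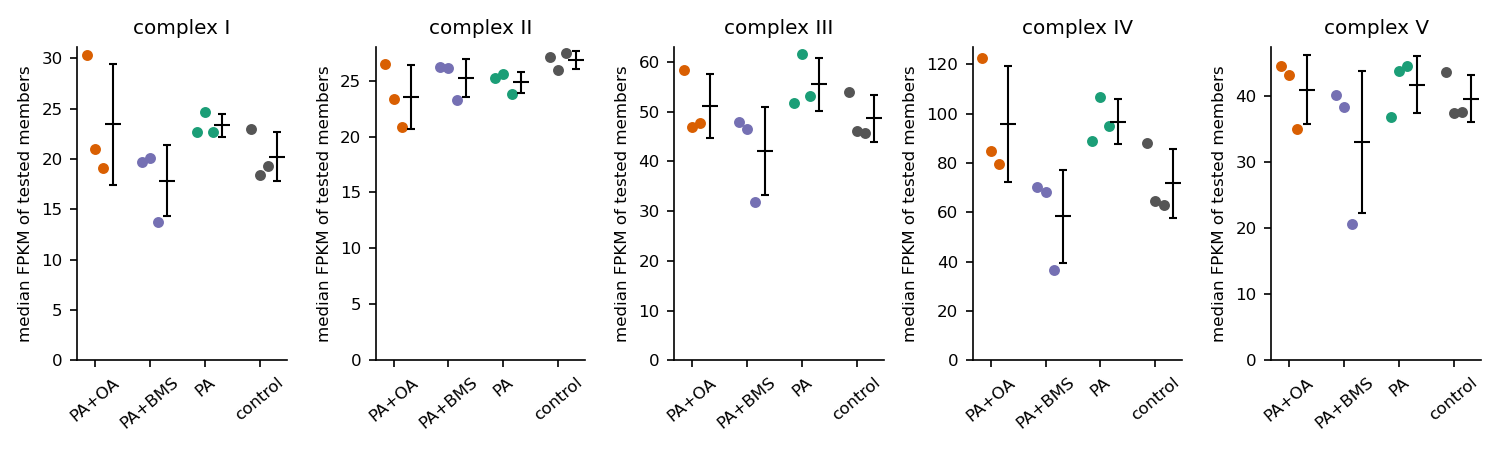
Median FPKM of the tested members of each complex in each library (points), with the mean and SD of the 3 libraries of a group beside them (bars). Each axis starts at 0. For complex IV the PA+BMS libraries lie at 36.6 to 70.3 FPKM and the PA libraries at 88.8 to 107 FPKM.

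The first comparison, PA against control, is of palmitate alone. PA+OA against PA, the oleate comparison, and PA+BMS against PA, the inhibitor comparison, share its PA libraries. Of the 80 tested members 2 rose, NDUFV1 and COX7A2L, and 3 fell, UQCRC2, SDHD and NDUFS1, where 12.8% of all genes tested rose and 14.8% fell. Both counts lay below the background. Yet 69 of 80 members were above 0, and the median log2 change was 0.25, against 0.028 over all genes tested, though with library totals set equal the members' median turned to -0.0064. The median was 0.28 for complex I, 0.12 for complex II, 0.23 for complex III, 0.43 for complex IV and 0.13 for complex V, and all 11 tested complex IV members were above 0, though 7 of 11 were with library totals set equal or after quantile normalization. At an unadjusted p under 0.05 there were 12 members higher and 5 lower. The share of all genes at that threshold is not given here, so these counts are not read as a shift of the members. PA and control libraries did not overlap, with PA higher, for 31 members (38.8%; 31.3% of all genes tested), and with PA lower for 5 (6.25%; 29.3% of all genes tested). The summed FPKM of the hepatocyte markers, carried by CPS1 and HPD, was 121 to 148 in PA libraries, against 166 to 192 in control libraries. The endothelial sum (CDH5, PECAM1, VWF and KDR) was 1.06 to 1.35 in PA and 1.36 to 1.82 in control libraries. PA and control libraries overlapped in the sums of the bile duct-like epithelial, stromal and immune (PTPRC, CSF1R, CD68 and CD14) markers. Of the endothelial and of the immune markers, 3 of 4 stayed under 1 FPKM in every library. The part of these sums in these results was not tested.

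In complex I, NDUFV1, the flavoprotein subunit that takes electrons from NADH (ENSG00000167792, chr11:67605653-67612554), had 63.8, 59.4 and 54.6 FPKM in PA libraries, against 42.8, 33.1 and 38.2 in control libraries. All PA libraries lay above all control libraries (limma, log2 change 0.63, SE 0.20, adjusted p = 0.0368). NDUFS1, the largest iron-sulfur core subunit of the same electron-input module (ENSG00000023228, chr2:206114817-206159603), had 8.87, 7.71 and 7.91 FPKM in PA libraries, against 10.3, 10.9 and 12.4 in control libraries. Here all PA libraries lay below all controls (limma, log2 change -0.41, SE 0.12, adjusted p = 0.0281). The subunits of this module thus differed in direction. NDUFS1 overlaps EEF1B2, an expressed translation factor gene. NDUFA4, now also counted as a subunit of complex IV, was at 0.20, and its paralogue NDUFA4L2 at -0.66 with overlapping groups (adjusted p = 0.547 and 0.0962).

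In complex II, SDHD, the small membrane anchor (ENSG00000204370, chr11:112086773-112120013), had 13.2, 13.5 and 12.8 FPKM in PA libraries, against 17.03, 17.9 and 17.4 in control libraries. The groups were apart and narrow (limma, log2 change -0.38, SE 0.099, adjusted p = 0.0186). SDHD overlaps TIMM8B, an expressed gene of mitochondrial protein import. SDHA, the catalytic flavoprotein, had 96.4, 93.97 and 86.5 FPKM in PA libraries, against 80.8, 62.7 and 72.7 in control libraries, also apart but upward and not past the threshold (log2 change 0.36, SE 0.16, adjusted p = 0.0964). The iron-sulfur subunit SDHB and the anchor SDHC were at 0.052 and 0.19, with overlapping groups. SDHA has annotated pseudogene copies elsewhere in the genome, so its reads may be shared.

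In complex III, UQCRC2, core protein 2 (ENSG00000140740, chr16:21952660-21983660), had 19.5, 14.8 and 18.5 FPKM in PA libraries, against 24.8, 25.9 and 27.3 in control libraries. The groups did not overlap (limma, log2 change -0.54, SE 0.12, adjusted p = 0.0102), and no annotated gene overlaps this one. Its partner in the complex, core protein 1, UQCRC1, had 289.5, 243 and 213 FPKM in PA libraries, against 184, 129 and 169.9 in control libraries. UQCRC1 thus stood higher in all PA libraries, without passing the threshold (log2 change 0.63, SE 0.24, adjusted p = 0.0699). CYC1 was at 0.52, UQCRH at 0.28 and UQCRHL at 0.28, none past the threshold.

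In complex IV, COX7A2L (ENSG00000115944, chr2:42333546-42425088) had 28.8, 27.4 and 24.9 FPKM in PA libraries, against 20.6, 15.9 and 20.3 in control libraries, with no overlap between groups (limma, log2 change 0.50, SE 0.17, adjusted p = 0.0463). COX4I1, a regulatory subunit that binds ATP, had 88.8, 99.6 and 89.1 FPKM in PA libraries, against 82.5, 60.5 and 56.6 in control libraries (log2 change 0.49, SE 0.25, adjusted p = 0.142). The remaining members fixed for description were at 0.51 for COX8A, 0.43 for COX6B1, 0.42 for COX7A2, 0.40 for COX6A1 and 0.044 for COX7B on the log2 scale, none past the threshold. In complex V no member rose or fell. ATP5F1B had 1433, 1353 and 1267 FPKM in PA libraries, against 1079, 902 and 1020.2 in control libraries (log2 change 0.44, SE 0.17, adjusted p = 0.0746), and ATP5PB, the peripheral stalk subunit b, had 36.7, 38.4 and 37.3 FPKM in PA libraries, against 43.6, 42.95 and 47.2 in control libraries (log2 change -0.24, SE 0.095, adjusted p = 0.0706). Both pairs of groups were apart, in opposite directions. The 3 c-subunit genes were at 0.32, 0.38 and 0.40, and ATP5IF1, the inhibitor of ATP hydrolysis by the enzyme, at 0.13.

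The number of members called in PA against control rested on the libraries and settings used. Without the PA+OA and PA+BMS libraries that stand apart, which enter through the shared estimate of spread, 34 members rose and 6 fell, where 29.9% of all genes tested rose and 26.8% fell. With only PA and control libraries in the fit 29 rose and 4 fell, against 26.0% and 23.8% of all genes. With library totals set equal 0 rose and 7 fell (4.38% and 24.5% of all genes), and the median of all genes tested moved to -0.18, so that the members' median lay 0.17 above it, against 0.23 with FPKM as deposited and 0.041 after quantile normalization. The voom fit gave 1 rise and 4 falls (7.08% and 21.8% of all genes). With the filter raised to 5 FPKM, 2 rose and 3 fell (20.4% and 17.0% of the 6881 genes kept). The members' median then lay 0.11 above that of all genes. None of the 5 calls held in every fit without 1 library: NDUFV1 held in 6 of 12, COX7A2L in 3, SDHD in 7 and NDUFS1 in 8. UQCRC2 passed in all 11 other settings and in 11 of 12 fits without 1 library, and was at a limma adjusted p of 0.0536 without PA replicate 2.

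When oleate was added to palmitate, no member rose and none fell, where 4.01% of all genes tested rose and 3.91% fell. At an unadjusted p under 0.05 limma gave 0 members in either direction, and voom gave 1 higher and 1 lower, with 0 called. Shares of all genes at that unadjusted threshold are not given here. Of the 80 members 61 were below 0, and the median was -0.065, against -0.0024 over all genes tested. By complex it was -0.068, -0.14, -0.059, -0.043 and -0.094 from I to V. The libraries of PA+OA and PA did not overlap for 1 member with PA+OA higher (1.25%; 13.3% of all genes tested) and for 3 with PA+OA lower (3.75%; 11.6% of all genes tested).

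The members with the smallest p are given by value. NDUFS5 had 435, 337 and 262 FPKM in PA+OA libraries, against 456, 448 and 413 in PA libraries (log2 change -0.38, SE 0.19, adjusted p = 0.298). PA+OA replicate 1 lay within the PA range and the other PA+OA libraries below it. ATP5PD, subunit d of the peripheral stalk, had 32.2, 26.6 and 22.1 FPKM in PA+OA libraries, against 36.1, 31.2 and 31.99 in PA libraries (log2 change -0.30, SE 0.15, adjusted p = 0.278). ATP5MG, subunit g of the membrane part, was at -0.32, SDHA at -0.17, SDHD at -0.17, UQCRH at -0.22 and COX6B1 at -0.11. Above 0 were NDUFV3, an accessory subunit, at 0.23 with PA+OA above PA in all libraries, UQCRC2 at 0.15 and COX6C at 0.22. UQCRC2 had 19.6, 20.1 and 19.2 FPKM in PA+OA libraries, against 19.5, 14.8 and 18.5 in PA libraries, and SDHD had 10.5, 12.9 and 11.3 in PA+OA libraries, against 13.2, 13.5 and 12.8 in PA libraries.

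These counts depended on PA+OA replicate 1. Without it the median over members was -0.23, against -0.0029 over all genes tested, and 4 members fell, NDUFS5, NDUFB3, ATP5PD and ATP5MG, where 9.60% of all genes fell. Without PA+BMS replicate 3 as well, 11 fell, where 14.2% of all genes did. Leaving out PA+OA replicate 3 turned the median over members to 0.059, with 0 called.

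With the FABP4 inhibitor, more members were called than in the other comparisons: 39 of 80 fell and 3 rose, where 29.4% of all genes tested fell and 25.2% rose. By complex, 17 of 36 members fell in complex I, 1 of 4 in complex II, 6 of 10 in complex III, 7 of 11 in complex IV and 8 of 19 in complex V. The 3 that rose were NDUFS1, SDHD and UQCRC2. In PA against control these genes were at -0.41, -0.38 and -0.54, with the same PA libraries in both comparisons. In all, 73 members were below 0, and the median log2 change was -0.48, against -0.044 over all genes tested. It was -0.49 for complex I, -0.27 for complex II, -0.47 for complex III, -0.75 for complex IV and -0.46 for complex V. PA+BMS and PA libraries did not overlap, with PA+BMS lower, for 59 members (73.8%; 36.7% of all genes tested) and with PA+BMS higher for 4 (5.0%; 32.8% of all genes tested).

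**Figure D3:**
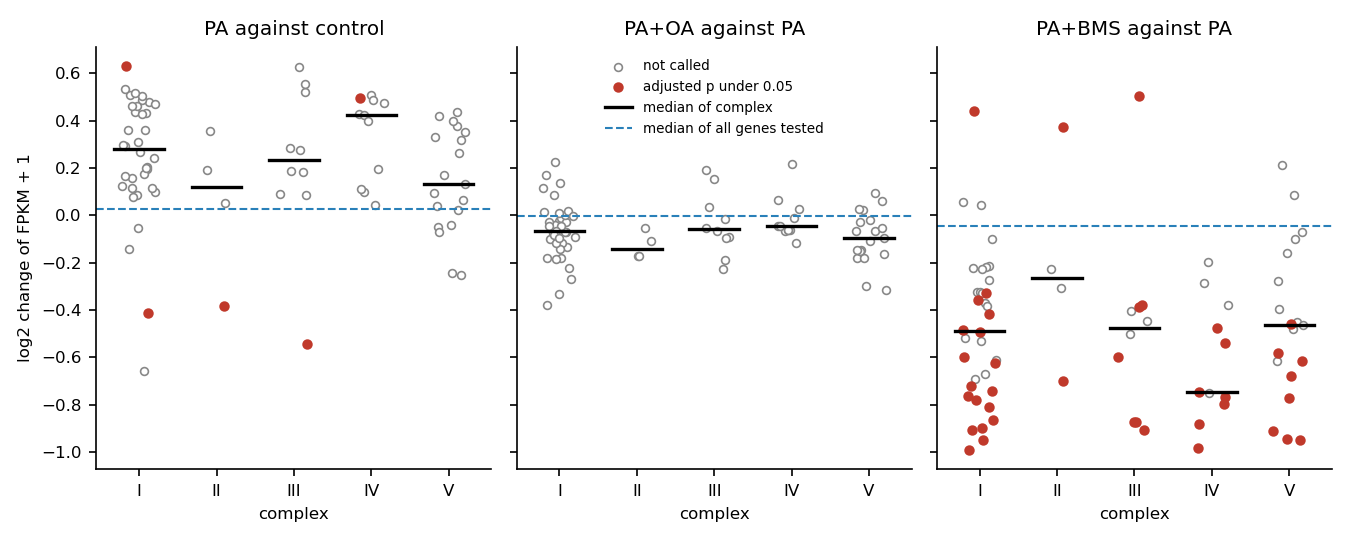
Log2 change of FPKM + 1 of each tested member (points) by complex in the 3 comparisons, with filled points where limma gave an adjusted p under 0.05. Bars are the median of a complex and the dashed line is the median of all genes tested. In PA+BMS against PA the complex medians lie between -0.75 and -0.27, and the 3 called members above 0 are NDUFS1, SDHD and UQCRC2.

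In complex I the largest fall in log2 FPKM + 1 was that of NDUFB11, an accessory subunit of the membrane arm (ENSG00000147123, chrX:47142216-47145504), with 163, 149 and 98.4 FPKM in PA+BMS libraries, against 264, 290.3 and 248 in PA libraries. The groups did not overlap (limma, log2 change -0.99, SE 0.24, adjusted p = 0.00855). NDUFB11 overlaps RBM10, an expressed splicing factor gene. NDUFB7, another membrane-arm subunit, fell by a similar amount (log2 change -0.95, SE 0.28, adjusted p = 0.0161), with 196, 173 and 114 FPKM in PA+BMS libraries and 291, 339 and 285 in PA libraries. NDUFV1 fell, with 38.2, 35.7 and 31.4 FPKM in PA+BMS libraries, against 63.8, 59.4 and 54.6 in PA libraries (log2 change -0.74, SE 0.20, adjusted p = 0.0117). The core iron-sulfur subunits NDUFS7 and NDUFS8 fell by 0.90 and 0.91 on the log2 scale. NDUFS1 rose, with 10.1, 11.5 and 12.8 FPKM in PA+BMS libraries, against 8.87, 7.71 and 7.91 in PA libraries (log2 change 0.44, SE 0.12, adjusted p = 0.0123), and its PA+BMS range overlapped that of the controls. NDUFA4 was at -0.38 and NDUFA4L2 at -0.23, neither past the threshold.

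In complex II the subunits split. SDHA (ENSG00000073578, chr5:218241-256700) had 59.7, 57.7 and 51.9 FPKM in PA+BMS libraries, against 96.4, 93.97 and 86.5 in PA libraries, with no overlap (limma, log2 change -0.70, SE 0.16, adjusted p = 0.00661). SDHD had 17.9, 18.01 and 16.2 FPKM in PA+BMS libraries, against 13.2, 13.5 and 12.8 in PA libraries, with no overlap in the opposite direction (limma, log2 change 0.37, SE 0.099, adjusted p = 0.0110). The PA+BMS values of SDHD spanned those of the controls, and those of SDHA lay below all controls. SDHB and SDHC were at -0.22 and -0.31, lower in all PA+BMS libraries but not past the threshold.

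In complex III, CYC1, which passes electrons to cytochrome c on the way to complex IV, had 235, 209.8 and 167 FPKM in PA+BMS libraries, against 404, 393 and 343 in PA libraries (limma, log2 change -0.91, SE 0.25, adjusted p = 0.0126). UQCRC1 had 136, 128 and 138 FPKM in PA+BMS libraries, against 289.5, 243 and 213 in PA libraries (limma, log2 change -0.87, SE 0.24, adjusted p = 0.0132), and unlike most members its replicate 3 did not stand low. UQCRC2 had 22.6, 25.7 and 27.9 FPKM in PA+BMS libraries, against 19.5, 14.8 and 18.5 in PA libraries (limma, log2 change 0.51, SE 0.12, adjusted p = 0.00783). The core proteins of this complex thus differed in direction. UQCRH fell by 0.60 and UQCRHL by 0.38 on the log2 scale, the copy near the threshold (adjusted p = 0.0497).

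In complex IV, COX8A (ENSG00000176340, chr11:63974607-63976543) had 197, 171 and 96.02 FPKM in PA+BMS libraries, against 252, 342 and 293 in PA libraries (limma, log2 change -0.98, SE 0.32, adjusted p = 0.0224). COX5B, a zinc-binding peripheral subunit, had 77.4, 68.4 and 41.5 FPKM in PA+BMS libraries, against 103, 125 and 109 in PA libraries (log2 change -0.88, SE 0.25, adjusted p = 0.0144). COX6B1, which faces the intermembrane space, had 120.1, 111 and 64.6 FPKM in PA+BMS libraries, against 149, 193 and 158 in PA libraries (log2 change -0.80, SE 0.25, adjusted p = 0.0214). In each of these the groups did not overlap and PA+BMS replicate 3 was well below the other PA+BMS libraries. COX4I1, COX7A2 and COX7A2L fell by 0.77, 0.75 and 0.48 on the log2 scale, while COX6A1 at -0.75 and COX7B at -0.29 did not pass.

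In complex V, ATP5F1D, the delta subunit of the central stalk (ENSG00000099624, chr19:1241746-1244826), had 56.8, 49.1 and 34.2 FPKM in PA+BMS libraries, against 86.8, 94.9 and 79.4 in PA libraries (limma, log2 change -0.91, SE 0.25, adjusted p = 0.0131). All 3 c-subunit genes fell. ATP5MC1 had 55.8, 54.3 and 28.9 FPKM in PA+BMS libraries, against 77.3, 94.5 and 89.3 in PA libraries (log2 change -0.95, SE 0.27, adjusted p = 0.0138). ATP5MC2 had 78.6, 70.8 and 37.3 in PA+BMS libraries, against 90.7, 116 and 99.7 in PA libraries (log2 change -0.77, SE 0.27, adjusted p = 0.0305), and ATP5MC3 had 40.1, 38.2 and 24.6 in PA+BMS libraries, against 54.5, 56.8 and 51.7 in PA libraries (log2 change -0.68, SE 0.21, adjusted p = 0.0200). The genes differ at the capitals in the printed coding stretches and encode the same mature subunit. PA+BMS lay below PA in all libraries for each of them. None of the 3 was called without PA+BMS replicate 3, with no filter, with library totals set equal or after quantile normalization, voom called ATP5MC1 alone, and ATP5MC2 held in 6 of 11 other settings. ATP5F1B fell by 0.58 and ATP5IF1 by 0.62 on the log2 scale, whereas the catalytic-ring partner ATP5F1A was at -0.16 and the stalk subunit ATP5PB at 0.21, neither past the threshold.

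**Figure D4:**
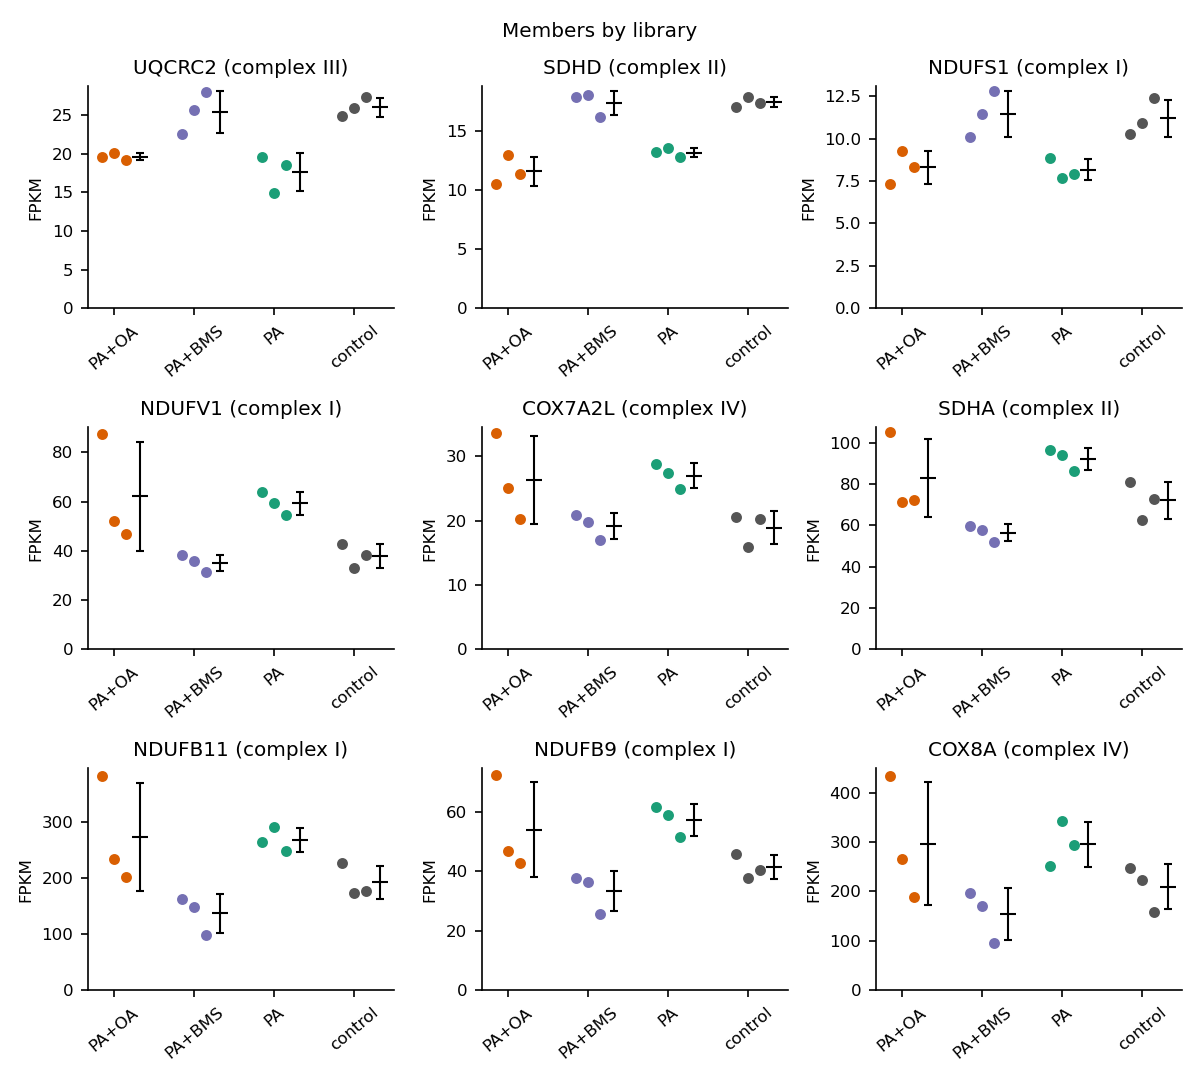
FPKM of named members in each library (points), with the mean and SD of the 3 libraries of a group beside them. UQCRC2, SDHD and NDUFS1 are lower in PA than in PA+BMS and control libraries, and NDUFB11, SDHA, NDUFB9 and COX8A are lower in PA+BMS than in PA libraries.

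The number of falls in PA+BMS rested on single libraries. Without PA+BMS replicate 3, the library at -51.5 on the first component, 8 members fell, among them NDUFV1, NDUFB9, NDUFB11, SDHA, CYC1, UQCRC1 and UQCRH, where 17.1% of all genes fell, and the median was -0.29, against -0.021 over all genes tested. Without PA replicate 2, 14 members fell (17.1% of all genes), without PA replicate 3, 25 fell (24.5%), and without PA+OA replicate 1, 50 fell (33.4%). Without both libraries that stand apart 36 fell and 3 rose (30.1% and 25.0% of all genes). Setting library totals equal gave 12 falls and 7 rises (10.1% and 38.6% of all genes), quantile normalization 12 and 6 (23.6% and 24.2%), and voom 17 and 4 (14.7% and 35.2%). The members' median stayed below that of all genes by 0.21 after quantile normalization and by 0.36 with totals equal, against 0.44 as deposited. With the filter raised to 5 FPKM, 38 members fell and 3 rose, where 43.4% and 21.2% of the 6881 genes kept did. The members' median minus that of all genes was then -0.24. NDUFB11, SDHA and NDUFB9, another accessory subunit of complex I, were among the members that fell in all 12 fits without 1 library and in all 11 other settings. The summed FPKM of 6 simple and bile duct-like epithelial markers was 372 to 427 in PA+BMS libraries, against 1029 to 1286 in PA libraries. It came from KRT7, KRT8 and KRT18, with KRT19, EPCAM and SOX9 under 1 FPKM in all 12 libraries, and its part in the result was not tested.

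Changes varied with the base composition of the transcripts. Across the 80 members, whose longest transcripts held 35.0% to 65.0% GC, the Spearman coefficient of log2 change with GC content was 0.55 in PA against control, 0.047 in the oleate comparison and -0.65 in the inhibitor comparison. These describe 80 genes measured in the same libraries, which are not independent replicates. For the 40 members with the higher GC content the median change was 0.40 in PA against control, and for the other 40 it was 0.12. The inhibitor comparison gave -0.70 for the higher and -0.33 for the lower GC members. Over all genes tested, GC content and length explained 43.3% of the variance of changes for palmitate alone, 7.79% for added oleate and 55.7% for the inhibitor. Members had a median of 47.5% GC, and all genes tested 49.2%.

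With each library's trend in GC content and length removed, 32 members fell and 0 rose in PA+BMS against PA, where 1421 of 11848 genes fell and 1329 rose, and the median was -0.42, against 0.0055 over all genes tested. Of the 32, 21 were among the 39 called before. By complex 12, 2, 4, 7 and 7 fell from I to V. NDUFB11, NDUFB9 and SDHA were among them. The falls of NDUFV1, NDUFB7, NDUFS7, NDUFS8, CYC1, UQCRC1, COX8A, COX6B1, ATP5F1B, ATP5F1D and ATP5MC2 were among those no longer called. The rises of UQCRC2, SDHD and NDUFS1 were no longer called, and NDUFS1 was at -0.071 (limma adjusted p = 0.617). In PA against control 1 member rose and 2 fell after the same removal (6.85% and 9.60% of all genes), with a median of 0.23 over members and 0.014 over all genes tested, and the falls of SDHD and NDUFS1 were lost (limma adjusted p = 0.425 and 0.940). In PA+OA against PA, 2 members fell after it, SDHD and NDUFS4, where 6.69% of all genes fell. The part of GC-dependent measurement in these changes was not tested.

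**Figure D5:**
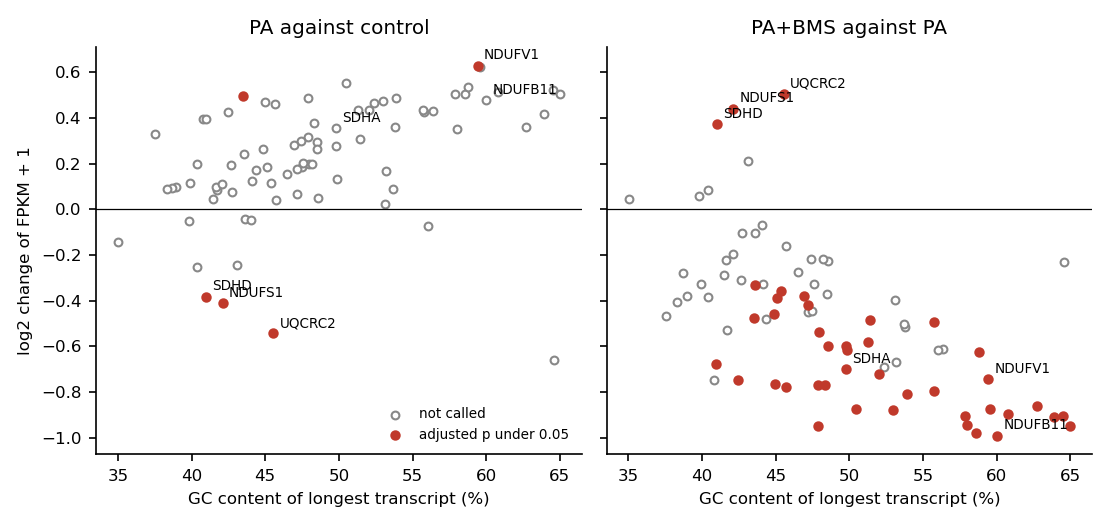
Log2 change of FPKM + 1 of the 80 tested members against the GC content of their longest transcript, in PA against control and in PA+BMS against PA, with filled points where limma gave an adjusted p under 0.05. Changes run upward with GC content in PA against control and downward in PA+BMS against PA, and UQCRC2, SDHD and NDUFS1 sit at 41.0% to 45.5% GC.

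Other genes of the pathway were taken from lists and are given by counts of rises and falls and the median log2 change, for palmitate alone, added oleate and the inhibitor in turn. Of all genes tested 12.8% rose and 14.8% fell for palmitate alone, 4.01% and 3.91% with added oleate, and 25.2% and 29.4% with the inhibitor. The 13 messenger RNAs of the mitochondrial genome, which encode the core membrane subunits, had 2 rises and 0 falls in PA against control (median 0.45), 0 and 3 with added oleate (median -0.32) and 0 and 3 with the inhibitor (median -0.47). MT-CO2, the copper-binding subunit of complex IV, had 8294, 5953 and 6105 FPKM in PA+OA libraries, 7554, 7093 and 7985 in PA+BMS, 12193, 11789 and 10286 in PA and 7763, 7599 and 7452 in control. All PA libraries lay above all others (limma adjusted p = 0.0258 for PA+OA against PA, 0.0195 for PA+BMS against PA and 0.0372 for PA against control). MT-ND3, a membrane subunit of complex I, had 1447, 1033 and 1076 FPKM in PA+OA, 1252, 1125 and 1312 in PA+BMS, 2299.6, 2077 and 1821 in PA and 1435, 1272 and 1508 in control libraries, again with all PA libraries above all others, and passed in each comparison. MT-ND6, the complex I subunit encoded on the other strand, had 300.3, 275 and 233 FPKM in PA+OA libraries, against 1350.4, 1014 and 952 in PA libraries (limma, log2 change -2.02, SE 0.28, adjusted p = 0.00131). All PA+OA libraries lay below all PA libraries. Without strand information, reads of MT-ND6 and of transcripts from the opposite strand cannot be told apart.

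Assembly factors, 45 tested, had 2 rises and 2 falls in PA against control (median 0.053), 0 and 0 with added oleate (median 0.025) and 7 and 16 with the inhibitor (median -0.078). In PA against control COX19, a copper-handling factor of complex IV, had 4.31, 4.98 and 5.52 FPKM in PA and 3.41, 2.45 and 2.26 in control (log2 change 0.69, SE 0.13, adjusted p = 0.00542), and COA7, another complex IV factor, had 11.2, 10.4 and 10.2 in PA and 14.8, 18.6 and 17.3 in control (log2 change -0.62, SE 0.13, adjusted p = 0.00823). In PA+BMS against PA LYRM7, which matures the Rieske protein of complex III, rose by 0.69 and NDUFAF8, a complex I factor, fell by 0.84 on the log2 scale. With added oleate SDHAF4, a complex II factor, was at 0.43 and NDUFAF7, a complex I factor, at 0.25, not called. The 14 citric acid cycle enzymes had 5 rises and 2 falls in PA against control (median 0.31), 0 and 0 with added oleate (median 0.0016) and 3 and 6 with the inhibitor (median -0.30). DLD, the dihydrolipoyl dehydrogenase, and SUCLG2, a succinyl-CoA ligase subunit, fell by 0.58 and 0.59 on the log2 scale in PA against control, and OGDH, of the oxoglutarate dehydrogenase complex, fell by 0.59 in PA+BMS against PA, where DLD rose by 0.62 (limma adjusted p = 0.00672). DLST, of the same complex, was at 0.11 in PA+OA against PA, not called.

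Ribosomal proteins of the cytosol and of mitochondria, whose ribosomes make the nuclear-encoded and mitochondrially encoded subunits, were counted for comparison. The 81 cytosolic genes tested had 1 rise and 1 fall in PA against control (median 0.32), 0 and 0 with added oleate (median -0.051) and 0 and 55 with the inhibitor (median -0.58). Those with the smallest p were RPL3 at 0.50 and RPL22 at -0.38 in PA against control, RPL22L1 at 0.71 and RPS10 at 0.41 in PA+OA against PA, not called, and RPL3 at -0.78 and RPS15A at -0.93 in PA+BMS against PA. The 77 mitochondrial ones had 2 rises and 4 falls (median 0.18), 0 and 0 (median -0.010) and 5 and 41 (median -0.42) in the same order. MRPL35 and MRPS35 were at -0.48 and -0.41 in PA against control, MRPS31 and MRPL51 at 0.45 and -0.43 in PA+OA against PA, not called, and MRPS18B and MRPS2 at -0.68 and -0.78 in PA+BMS against PA. No test of the difference between these lists, the members and all genes was made.

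Of 16 tested transcriptional regulators of mitochondrial biogenesis, 2 rose and 3 fell in PA against control (median -0.12), 0 and 1 with added oleate (median -0.0067) and 4 and 5 with the inhibitor (median 0.0052). TFAM, which packages and transcribes mitochondrial DNA (ENSG00000108064, chr10:58385022-58399221), had 5.72, 5.76 and 6.48 FPKM in PA+OA libraries, 8.46, 8.01 and 11.4 in PA+BMS, 5.59, 5.90 and 5.19 in PA and 8.22, 9.12 and 9.003 in control. All PA libraries lay below all PA+BMS and control libraries. The limma values for TFAM were log2 change -0.58, SE 0.12, adjusted p = 0.00920 in PA against control and log2 change 0.64, SE 0.12, adjusted p = 0.00445 in PA+BMS against PA. GABPA, an ETS factor of respiratory genes, fell by 0.52 on the log2 scale in PA against control and rose by 0.65 in PA+BMS against PA. GABPA overlaps the member ATP5PF. ESRRA, a nuclear receptor of oxidative genes, had 30.98, 27.2 and 26.6 FPKM in PA+BMS and 53.7, 50.3 and 45.9 in PA libraries, against 36.5, 27.6 and 29.2 in control libraries. It rose by 0.67 in PA against control (limma adjusted p = 0.0268) and fell by 0.80 in PA+BMS against PA (limma adjusted p = 0.00843). NRF1 was at 0.34 in PA against control (adjusted p = 0.0546) and fell by 0.54 in PA+BMS against PA. The other calls named by the rule were PPARD, a fatty acid-sensing receptor, at 0.69 and TFB2M, a mitochondrial transcription factor, at -0.68 in PA against control, HCFC1, a chromatin cofactor, at -0.73 in PA+OA against PA, and PPRC1, a coactivator, at -0.62 in PA+BMS against PA. MYC was at 0.036, -0.076 and -0.42 in the palmitate, oleate and inhibitor comparisons, with no call. The coactivators PPARGC1A and PPARGC1B stayed at 0.322 to 1.19 and 0.235 to 1.07 FPKM and were not tested.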

How the data were processed

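RNA was measured in 12 HepaRG libraries, 3 in each of 4 groups, after poly(A) selection per the labels' protocols. The authors deposited FPKM per gene. Per the submitters' processing notes, tools included featureCounts 1.5.0-p3, HISAT2 2.0.5 and CASAVA; build, annotation and strandedness are not given in the sources here. Symbols and coordinates of all 92 members equalled those of GENCODE 29 on GRCh38.

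Log2(FPKM + 1) of genes with at least 1 FPKM in at least 3 libraries was fitted with limma 3.58.1 in R 4.3.3, with a coefficient per group over 12 libraries, 8 residual degrees of freedom, a trended eBayes prior and Benjamini-Hochberg adjustment at 0.05 over all 11856 genes of a comparison, two-sided. Every FPKM times length was within tolerance of a whole multiple of the library's step (100% of values). The tolerance was 0.001 times the read number and at least 0.001, so values of many reads, and of 0, pass in any case. Reads were recovered on this step for a voom fit. It called 839 rises and 2586 falls over all genes in PA against control, 433 and 370 in PA+OA against PA, and 4168 and 1739 in PA+BMS against PA. The library size behind FPKM was 0.827 to 1.14 times these reads, and a smaller size gives a higher FPKM. This ratio was 0.888, 0.925 and 0.976 in PA libraries, against 1.03, 1.10 and 1.04 in control libraries. It was 1.13, 1.14 and 1.09 in PA+BMS and 0.827, 1.03 and 1.03 in PA+OA libraries. PA libraries thus did not overlap control or PA+BMS libraries in this ratio, and its part in the changes of FPKM as deposited was not tested. Replicates differed by more than sampling noise (chi-square per gene 3.46 to 67.6). The procedure was also run on simulated reads, with no GC or length trend and no libraries that stand apart. That run therefore cannot speak to these features of the data, and its outcome is not given here. Figures used matplotlib 3.10.9 in Python 3.11.15.

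Members, lists, alternatives and the rule for named genes were chosen with earlier results of these data known. The rule takes, per comparison, the 2 members with the smallest p in each complex, the 3 largest rises and falls among called members, the highest and lowest level of each complex, 26 fixed members, and the 2 smallest p of each related list with 7 fixed regulators. NDUFB3, NDUFB9, NDUFS4, NDUFS7, NDUFS8 and ATP5F1A were added after their values were seen, and the NRF1 motif was shortened by a letter after its shares were seen. One named gene is not reported here.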

Additional observations from a re-analysis of the deposited data

How the results depend on the processing

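Recomputed counts are given in the order of rises, then falls. Shares over all genes tested follow in parentheses. In PA against control, with 2 and 3 members called, no filter gave 0 rises (2.33%), totals set equal 0 and 7 (4.38% and 24.5%) and quantile normalization 5 falls (14.3%). Only the compared groups gave 29 rises (26.0%), removal of the GC and length trend 1 rise (6.85%) and voom 1 rise (7.08%). Leaving out both libraries that stand apart gave 34 and 6 (29.9% and 26.8%). Leaving out 1 library gave 0 to 15 rises and 0 to 4 falls: 15 rises without PA+OA replicate 1, 1 without PA+OA replicate 2, PA+BMS replicate 1 or control replicate 1, and 0 without PA+BMS replicate 2, any PA library or control replicate 2 or 3. Falls numbered 0 without PA replicate 2, and 1 without PA replicate 3 or control replicate 2 or 3. In these fits without 1 library 2.95% to 23.9% of all genes tested rose and 3.75% to 21.1% fell. In PA+OA against PA, with 0 called, quantile normalization gave 1 fall (4.50%), trend removal 2 (6.69%) and leaving out both libraries 11 (14.2%). Leaving out 1 library gave 0 to 4 falls (1.82% to 9.60%). In PA+BMS against PA, with 3 rises and 39 falls, no filter gave 12 falls (7.34%) and totals set equal 7 and 12 (38.6% and 10.1%). Quantile normalization gave 6 and 12 (24.2% and 23.6%), trend removal 0 rises (11.2%) and voom 17 falls (14.7%). Leaving out 1 library gave 3 to 4 rises and 8 to 50 falls. The 8 falls came without PA+BMS replicate 3, with 3 rises (17.1% of all genes fell and 14.2% rose). The 50 falls came without PA+OA replicate 1, with 4 rises (33.4% of all genes fell and 29.2% rose). NDUFS1 in PA+BMS against PA changed sign, to -0.071, with the trend removed. The cause was not tested in any of these. Of the values recomputed for named genes, 814 of 986 in PA against control, 886 of 959 in PA+OA against PA and 844 of 985 in PA+BMS against PA kept their direction and side of the threshold. Each group kept at least 2 libraries in all fits.

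Replicate numbers in the labels are shared by the groups. Same-numbered libraries deviated together with correlations of -0.195, -0.148 and -0.095 in PA against control, -0.039, -0.175 and 0.237 in PA+OA against PA, and -0.278, 0.358 and 0.071 in PA+BMS against PA, so the numbers were not taken to pair libraries. With a replicate block 14 members rose and 3 fell in PA against control, 0 and 0 in PA+OA against PA, and 3 rose and 52 fell in PA+BMS against PA. Of all genes tested 19.9% rose and 19.3% fell in PA against control. The shares were 4.87% and 4.74% in PA+OA against PA, and 27.4% and 32.3% in PA+BMS against PA. Not every library correlated best with its own number.

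The library size behind the deposited FPKM has no stated source, and the 3 libraries of each group limit the precision of small changes.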
